A study of Mus musculus with 3 samples.

Results

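The genes of the mitochondrial genome were followed in polyadenylated RNA from effector memory helper T cells of the mouse. They were chosen by name, as every gene whose GENCODE M21 symbol starts with mt-, and numbered 37 of the 55536 genes in the annotation. They comprise 13 protein genes, 2 rRNA genes and 22 tRNA genes. The cells, which carry CD4 and an alpha-beta receptor, came from 1 male C57BL/6J mouse aged 7 months, with no transgene or treatment named in the labels. All 3 libraries are technical replicates of that 1 animal, here called libraries 1, 2 and 3 after their labels. There is no second condition, so the comparisons are between members, between members and nuclear genes, and between libraries, and every SD (n = 3) measures technical spread within 1 mouse.

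Mitochondria carry their own circular genome, which is transcribed from both strands into long precursor RNAs that span nearly all of its genes. The tRNAs lie between most of the rRNAs and mRNAs, and their excision frees the neighbouring transcripts, after which a mitochondrial polymerase adds adenosines to the mRNA ends. The protein genes encode core subunits of respiratory complexes I, III and IV and of the ATP synthase, complex V, whose other subunits are encoded in the nucleus. In T cells these complexes provide ATP for resting and memory cells and support the response to antigen.

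Gene counts, which are estimates that divide ambiguous reads among genes, came to 16251564, 14878641 and 14152590 over all genes of libraries 1, 2 and 3. The label was checked with 5 T cell markers (Cd3e, Cd4, Trac, Trbc2 and Cd44), which stood between 122 and 3659 TPM in every library. TPM is a level per transcript length, scaled to the same total in each library. Of 12 markers of other cells, 10 averaged under 1 TPM and 2 of these (Trdc, Ppbp) were at 0 in all libraries. The exceptions were the epithelial gene Epcam, at 5.24 TPM on average, and the globin gene Hbb-bs, at 3.90 TPM. The 12 markers summed to 11.49, 12.4 and 8.73 TPM in libraries 1, 2 and 3. In bulk RNA, fewer cells with a transcript and less of it per cell cannot be told apart.

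The members took 1.73% of gene counts in library 1, 1.45% in library 2 and 1.82% in library 3, or 1.67% ± 0.192 on average. Exact Clopper-Pearson 95% intervals of these shares, which cover counting error only, ran from 1.726% to 1.739%, from 1.443% to 1.455% and from 1.809% to 1.823%. Library 2 was lower than the others by far more than counting error. Within the members' counts, 82.05% ± 0.613 fell in protein genes, 17.6% ± 0.598 in rRNA genes and 0.396% ± 0.0157 in tRNA genes. On the length-corrected scale the members took a larger share, 3.62% of all TPM.

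By own counts the most abundant mitochondrial mRNA was that of a complex IV gene, mt-Co3, followed by mt-Atp6 of complex V and the complex IV genes mt-Co1 and mt-Co2. mt-Co3 (chromosome M, positions 8607 to 9390 on GRCm38/mm10, plus strand) encodes a core subunit of cytochrome c oxidase and had 7244.5, 6672 and 7171 TPM in libraries 1, 2 and 3. mt-Co1 (5328 to 6872), the catalytic subunit that holds haem and copper, had 4270, 3580.5 and 4127 TPM. mt-Co2 (7013 to 7696), which takes electrons from cytochrome c, had 2631, 3003 and 3585.5 TPM. The 3 genes kept the order mt-Co3, mt-Co1, mt-Co2 in every library, and among 22028 protein-coding genes ranked by mean TPM they came 3rd, 11th and 19th. Complex IV took 58.6% ± 1.55 of the counts of the mitochondrial protein genes.

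The ATP synthase has 2 mitochondrial genes. mt-Atp6 (7927 to 8607), the subunit that forms the proton path, had 5056.5, 3695 and 5681 TPM, with library 2 clearly the lowest. mt-Atp8 (7766 to 7969), a small membrane subunit, had 2390, 2044 and 2301 TPM, again lowest in library 2 but with closer values. mt-Atp6 ranked 7th and mt-Atp8 34th among protein-coding genes. Their gene models share 43 bases, which is shorter than the read length inferred further on, so no read can lie wholly within the overlap. The level of mt-Atp6 was 2.12, 1.81 and 2.47 times that of mt-Atp8 in libraries 1, 2 and 3.

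mt-Cytb (14145 to 15288), which encodes cytochrome b and is the only mitochondrial subunit of complex III, had 2263, 2049 and 2195.5 TPM and ranked 37th. It took 10.6% ± 0.528 of the protein genes' counts.

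The 7 complex I genes, which encode the proton-pumping membrane arm of NADH dehydrogenase, covered a wide range. mt-Nd1 (2751 to 3707) was the highest, with 1614, 1426 and 1612 TPM and rank 60. mt-Nd4 (10167 to 11544) came next with 629, 505 and 640 TPM. mt-Nd5 (11742 to 13565), mt-Nd6 (13552 to 14070, the only protein gene on the minus strand) and mt-Nd2 (3914 to 4951) lay close together. mt-Nd5 had 420, 336 and 435 TPM. mt-Nd6 had 393, 358 and 382 TPM. The strand setting of the counts is not given, so the mt-Nd6 values may include reads of RNA from the opposite strand. mt-Nd2 had 385, 285 and 419 TPM, and the ranges of these 3 genes overlapped. The lowest were mt-Nd4l (9877 to 10173), with 207, 128 and 212 TPM, and mt-Nd3 (9459 to 9806), with 142, 178 and 153 TPM. Together the 7 genes took 15.7% ± 0.34 of the protein genes' counts, and the 2 ATP synthase genes took 15.04% ± 1.73.

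The 13 protein genes had a median of 1614, 1426 and 1612 TPM, or 1551 ± 108 on average. Nuclear protein-coding genes at 1 TPM or more in every library numbered 10000 and had a median of 27.6, 28.6 and 27.1 TPM. From mt-Co3 down to the lowest protein gene the level by own counts spanned 50.9-fold, 52.1-fold and 46.75-fold. Of the 13, 4 stood among the 20 most abundant protein-coding genes and 7 among the 100 most abundant, while mt-Nd3 ranked 1031st.

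The rRNA genes encode the RNAs of the small and large subunits of the mitochondrial ribosome. mt-Rnr1 (70 to 1024), the small-subunit rRNA, had 920, 1315 and 984 TPM. mt-Rnr2 (1094 to 2675), the large-subunit rRNA, had 2746, 1905 and 2846 TPM. Library 2 was thus the highest for mt-Rnr1 and the lowest for mt-Rnr2. The ratio of mt-Rnr2 to mt-Rnr1 was 1.45 in library 2, against 2.99 in library 1 and 2.89 in library 3. The libraries were enriched for polyadenylated RNA, so these rRNA values describe what that selection kept and not the rRNA content of the cells.

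Ordered by mean TPM, the 15 protein and rRNA genes gave 14 pairs of neighbours. In 6 pairs the higher gene's lowest library stood above the lower gene's highest library. These gaps followed mt-Co3, mt-Cytb, mt-Nd1, mt-Rnr1, mt-Nd4 and mt-Nd2. In the other 8 pairs the ranges overlapped. Of these, mt-Atp6 was nevertheless above mt-Co1, and mt-Co1 above mt-Co2, in every library. Pairs such as mt-Atp8 beside mt-Cytb and mt-Nd4l beside mt-Nd3 changed order between libraries. The order of the highest genes depends on how reads were assigned. With the deposited posterior mean TPM, mt-Atp6 was below mt-Co1 in library 2, at 2992 against 3047. The lowest mt-Co3 value was then 3755, below the highest of mt-Atp6 at 4016.

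**Figure D1:**
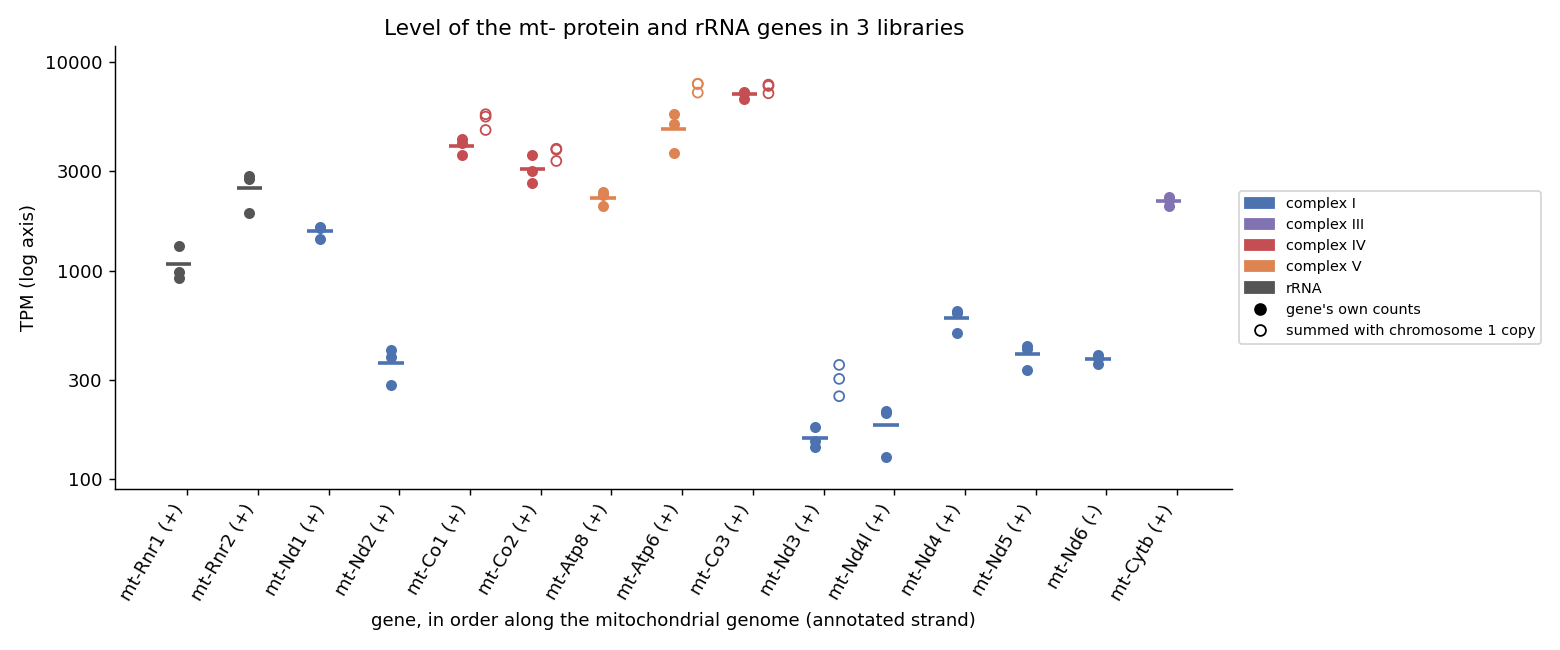
TPM on a log axis of the 13 protein and 2 rRNA genes in 3 libraries, placed in their order along the mitochondrial genome. Filled points are libraries, lines are means, and open points add the reads assigned to a near-identical copy on chromosome 1. The complex IV and V genes in the middle of the genome have means from 2245 to 7029 TPM, and the complex I genes other than mt-Nd1 have means from 158 to 591 TPM.

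Some mitochondrial mRNAs are known to gain their stop codon from the tail. All 13 reading frames were open when read with the vertebrate mitochondrial code, and 10 ended in a full stop codon. The other 3 models ended in an incomplete codon, a lone T, which added adenosines would complete to a stop codon. These were mt-Co3, mt-Nd4 and mt-Cytb. Their last 31 bases are shown because a tail would complete their reading frames, with the incomplete codon in capitals. Whether the RNAs captured here carry those adenosines was not tested. The bases are taken from the GENCODE M21 transcripts on GRCm38/mm10, plus strand (chrM:9360-9390, chrM:11514-11544 and chrM:15258-15288).
mt-Co3: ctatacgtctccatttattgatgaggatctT
mt-Nd4: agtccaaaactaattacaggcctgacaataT
mt-Cytb: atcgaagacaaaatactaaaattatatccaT
The 3 genes did not share a level, since mt-Co3 was the highest protein gene at 7029 ± 311 TPM, mt-Cytb stood at 2169 ± 110 TPM and mt-Nd4 at 591 ± 75.0 TPM. Start codons also varied. ATG began 9 of the 13 reading frames, GTG began mt-Nd1, ATA began mt-Nd2, ATT began mt-Nd3 and ATC began mt-Nd5.

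Reads of several members cannot be told from reads of nuclear DNA of mitochondrial origin. The annotation holds a block of 7 unprocessed pseudogenes on the minus strand of chromosome 1, at 24611535 to 24616197 on GRCm38/mm10, which spans 4663 bases. In it lie copies of mt-Co1 (Gm29216), mt-Co2 (Gm28661), mt-Atp6 (Gm10925), mt-Co3 (Gm28437), mt-Nd3 (Gm28438), mt-Nd4l (Gm10222) and mt-Nd4 (Gm28439), in the same order as on the mitochondrial genome. Over the aligned bases 5 of the 7 were identical to their mitochondrial gene, and the copies of mt-Nd3 and mt-Co1 differed at 1 base each. The 50-base positions of a member that also occur in a nuclear gene made up 100% of mt-Co2, 99.9% of mt-Co3, 99.5% of mt-Atp6, 98.8% of mt-Nd4l, 98.0% of mt-Nd3, 62.2% of mt-Nd4 and 51.1% of mt-Co1. They made up 8.19% of mt-Nd2 and 7.61% of mt-Nd5, and 0% of mt-Nd1, mt-Cytb, mt-Atp8, mt-Nd6 and both rRNA genes. A length of 50 bases is the read length that the effective lengths in the tables imply, since each is 49 bases under the gene's length.

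Within the aligned bases, stretches that separate a member from its copy are short. The copies of mt-Co1 and mt-Nd4 cover only part of the gene, and these 2 members have 731 and 502 positions found in no nuclear gene. They are shown for mt-Nd3 and mt-Co1, the pairs with a difference inside the alignment, with the differing bases in capitals. With positions counted from 1 at the first base of the gene, the substitutions are T3C in Gm28438 against mt-Nd3 and A1066T in Gm29216 against mt-Co1. The mt-Co1 stretch also holds the edge of the alignment, upstream of which 5 further bases differ within the gene model of Gm29216. The members are read on the plus strand at chrM:9459-9486 and chrM:6381-6418, and the copies on the minus strand at chr1:24613092-24613119 and chr1:24616160-24616197.
mt-Nd3: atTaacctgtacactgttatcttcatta
Gm28438: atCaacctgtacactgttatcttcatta
mt-Co1: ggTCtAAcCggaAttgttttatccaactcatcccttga
Gm29216: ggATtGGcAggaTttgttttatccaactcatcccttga
Within the aligned bases of these pairs, a read that covers none of these letters could come from either gene.

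The deposited estimates divided the shared reads unevenly and differently from library to library. mt-Co2 was given 16629, 16870 and 20020 counts in libraries 1, 2 and 3, and its copy 7484, 2032 and 1497, so that mt-Co2 held 69.0%, 89.2% and 93.0% of the pair. mt-Atp6 was given 31810, 20663 and 31571 counts and its copy 17904, 19407 and 12252, with 64.0%, 51.6% and 72.04% in mt-Atp6. For mt-Nd3 the member held 46.9%, 71.3% and 43.4% of the pair, highest in library 2. By these estimated counts the 3 pairs moved by over 20 percentage points between libraries, without a common order of libraries. By the deposited posterior mean counts each moved by less than that. The member's shares were then 55.8%, 69.5% and 71.3% for mt-Co2 in libraries 1, 2 and 3. They were 58.5%, 49.1% and 59.9% for mt-Atp6, and 53.2%, 66.3% and 46.7% for mt-Nd3.

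Other pairs were divided more evenly over libraries. mt-Co1 held 75.7%, 75.5% and 75.1% of its pair, and 48.9% of its positions occur in no nuclear gene. mt-Co3 held 92.6%, 93.8% and 93.0% by the estimated counts, but 62.9%, 62.0% and 62.2% by the deposited posterior mean counts of the same reads. mt-Nd4 and mt-Nd4l were given 100% of their pairs, and the copies 0 counts. The deposited posterior SD of the count, a measure of assignment uncertainty, exceeded 1% of the count in at least 1 library for 5 members. It reached 44.3% for mt-Nd3, 10.8% for mt-Nd4l, 9.03% for mt-Atp6, 8.51% for mt-Co2 and 7.17% for mt-Co3, against at most 0.253% for the other protein genes.

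**Figure D2:**
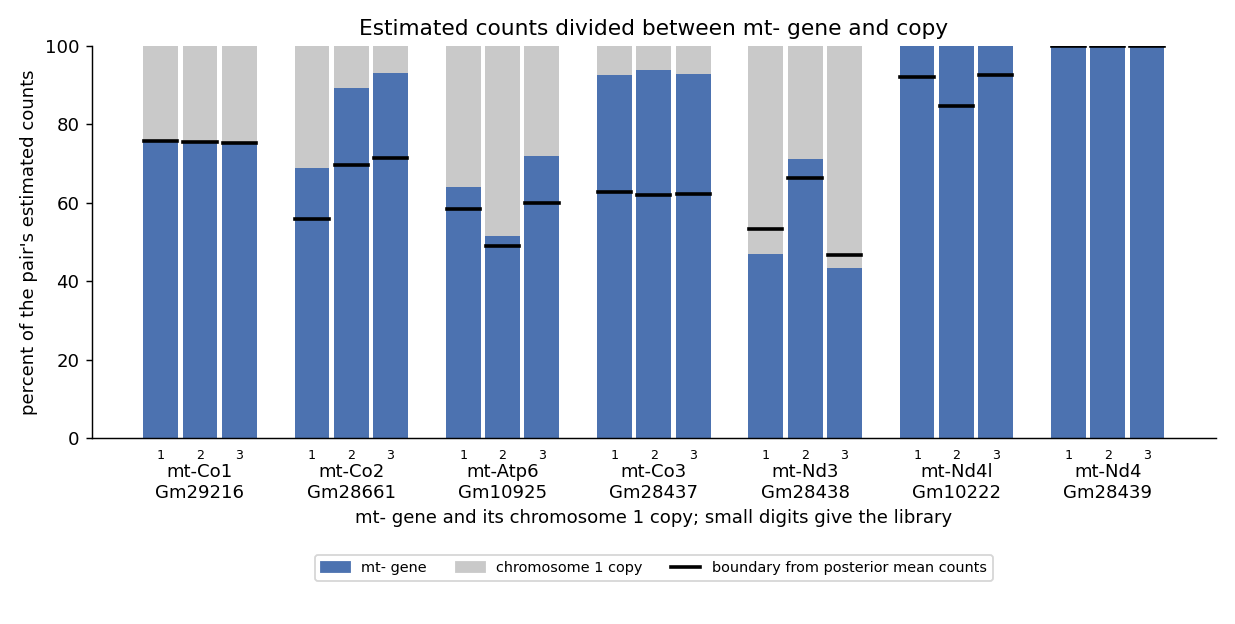
Percent of the estimated counts of each pair given to the mt- gene (blue) and to its chromosome 1 copy (grey) in libraries 1, 2 and 3, with black lines for the boundary set by posterior mean counts. The boundary moves between libraries for mt-Co2, mt-Atp6 and mt-Nd3 and stays within 1 percentage point for mt-Co1.

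Since the reads resolve most pairs poorly, the sum of each pair was also taken, a choice made after the values had been seen. It counts reads of either origin and is not a level of the mitochondrial gene alone. The chromosome 1 copies held 0.311%, 0.268% and 0.253% of gene counts, and the members together with the copies held 2.04%, 1.72% and 2.07%. Summed, mt-Atp6 reached 7902.5, 7166 and 7886 TPM and mt-Co3 reached 7825, 7113.5 and 7713 TPM. Summed mt-Atp6 exceeded summed mt-Co3 in every library, whereas by its own counts mt-Co3 was above mt-Atp6 in every library. Summed mt-Co1 had 5644, 4740 and 5493 TPM, summed mt-Co2 had 3815, 3364.5 and 3854 TPM, and summed mt-Nd3 had 303, 250 and 354 TPM. From the highest to the lowest protein gene, summed levels spanned 38.1-fold, 55.96-fold and 37.14-fold in libraries 1, 2 and 3.

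Summing narrowed the spread between libraries in the ATP synthase genes. The share of complex V in the protein genes' counts was 19.3% ± 0.336 summed, against 15.04% ± 1.73 by own counts. That of complex I was 13.2% ± 0.556 summed, below complex V in every library, and that of complex IV was 58.7% ± 0.2 summed, against 58.6% ± 1.55. The ratio of mt-Atp6 to mt-Atp8 was 3.31, 3.51 and 3.43 summed. The SD of that ratio was 0.1 summed and 0.331 by own counts. Between neighbours in the order of levels, 8 of the 14 pairs were separate when summed.

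Nuclear copies elsewhere took few reads. Across the annotation 17 nuclear genes matched 11 members at 90% identity or more over at least 100 bases, and 7 of them had 10 or more counts over the libraries. Besides the 5 chromosome 1 copies with counts, these were Gm13340, which resembles mt-Co1, with 75.6 counts in all, and Gm13341, which resembles mt-Co2, with 13.3 counts. Both lie on chromosome 2. They match their genes at 97.6% and 95.9% of aligned bases.

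The second deposited gene table gave another picture of the same libraries. It lists 13 of the members, all of them protein genes, and has 0 counts in all 3 libraries for mt-Co2, mt-Atp8, mt-Atp6, mt-Co3, mt-Nd3 and mt-Nd4l. Of these, 5 have nearly all of their positions in a chromosome 1 copy. The sixth, mt-Atp8, matched no annotated nuclear gene, but 233 bases with no annotated gene lie between the copies of mt-Co2 and mt-Atp6, where the mitochondrial genome has 230 bases that include most of mt-Atp8. The sequence of those 233 bases was not used here.

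In that table the other 7 protein genes levelled off. mt-Nd1 had 1777, 1739 and 1777 counts, mt-Cytb had 2156, 2131 and 2152, and mt-Co1 had 1407, 1390 and 1397. Divided by the number of 50-base positions not found in a nuclear gene, the 7 genes had between 1.15 and 1.98 counts per position, and 0 of 21 values were above 2. The estimated counts of the same genes ran from 2.52 to 42.5 per position. In the second table mt-Nd1 and mt-Cytb therefore differed by under 3% per position in every library, although their estimated levels differed by more than their spread. How the second table was counted is not given in the sources used here, so its values for the members were not read as levels.

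The members are annotated on both strands, 28 on the plus strand and 9 on the minus strand. The plus-strand genes took 98.96%, 98.9% and 98.99% of the members' counts. On the minus strand lie mt-Nd6 and 8 tRNA genes. Whether counting used strand is not given in the sources used here, so reads of a gene and of the RNA opposite to it cannot be told apart. mt-Nd6 shares 14 bases with mt-Nd5 on the other strand, and the level of mt-Nd5 was 1.07, 0.938 and 1.14 times that of mt-Nd6. Base composition differed by strand as well. The excess of G over C, as a share of G and C, was between -0.631 and -0.192 in the 12 plus-strand protein genes and 0.65 in mt-Nd6.

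Position along the genome and level were only weakly related in the 12 plus-strand protein genes. Across these genes, which are not independent since they come from shared precursors and the same libraries, Spearman's rho between distance from the start of the genome and mean TPM was -0.245, and Pearson's r on log2 TPM was -0.177. With summed counts the values were -0.259 and -0.182. Genes cut from the same stretch also differed. mt-Nd4l and mt-Nd4 share 7 bases and are known as 1 bicistronic mRNA, and the level of mt-Nd4 was 3.03, 3.94 and 3.02 times that of mt-Nd4l, whose effective length of 248 bases is short.

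The 22 tRNA genes had 1124, 816 and 1052 counts in libraries 1, 2 and 3, or 0.0069%, 0.0055% and 0.0074% of gene counts. Mature tRNAs lack a long tail and are shorter than the labelled fragments of 100 to 300 bases, so these counts are not tRNA levels. A single gene, mt-Ts1 (6870 to 6938, minus strand), which encodes a serine tRNA, held 995, 746 and 934 of these counts, or 89.6% ± 1.6. The next was the glutamate tRNA gene mt-Te, also on the minus strand, with 56, 24 and 44 counts. The other 20 genes had 73, 46 and 74 counts together. Of the 22, 19 had under 30 counts over all libraries, and mt-Th and mt-Ts2 had 0 in each, which allows up to 3 counts per library.

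Counts of tRNA genes lay almost wholly in genes annotated on the minus strand, whichever strand the reads came from. The 8 minus-strand tRNA genes had 1101, 801 and 1022 counts, and the 14 plus-strand tRNA genes had 23, 15 and 30. Without mt-Ts1 and mt-Te, the 6 other minus-strand genes still had 50, 31 and 44 counts, more than the 14 plus-strand genes in each library. The highest plus-strand tRNA genes were those of methionine, mt-Tm, with 6, 6 and 8 counts, and leucine, mt-Tl1, with 10, 3 and 6 counts.

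mt-Ts1 lies opposite the end of mt-Co1. The last 33 bases of mt-Co1 (chrM:6840-6872, plus strand) and the whole of mt-Ts1 (chrM:6870-6938), first on its own minus strand and then on the plus strand, are shown because the stop codon of mt-Co1, in capitals, is also the last 3 bases of mt-Ts1 read on the other strand.
mt-Co1 end: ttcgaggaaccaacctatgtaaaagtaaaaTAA
mt-Ts1: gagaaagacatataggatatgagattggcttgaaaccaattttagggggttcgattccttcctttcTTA
mt-Ts1 other strand: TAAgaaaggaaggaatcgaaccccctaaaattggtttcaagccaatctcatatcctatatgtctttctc
The mRNA of mt-Co1 is known to extend past its stop codon through the sequence opposite this tRNA. mt-Ts1 had 1.565, 1.574 and 1.72 counts per 100 counts of mt-Co1, a ratio that varied by an SD of 0.0873. Its 4998, 4216 and 5311 TPM place it beside the complex IV mRNAs, but they rest on an effective length of 20 bases, so its TPM is not comparable with those of the longer genes. Which strand its reads came from was not tested.

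**Figure D3:**
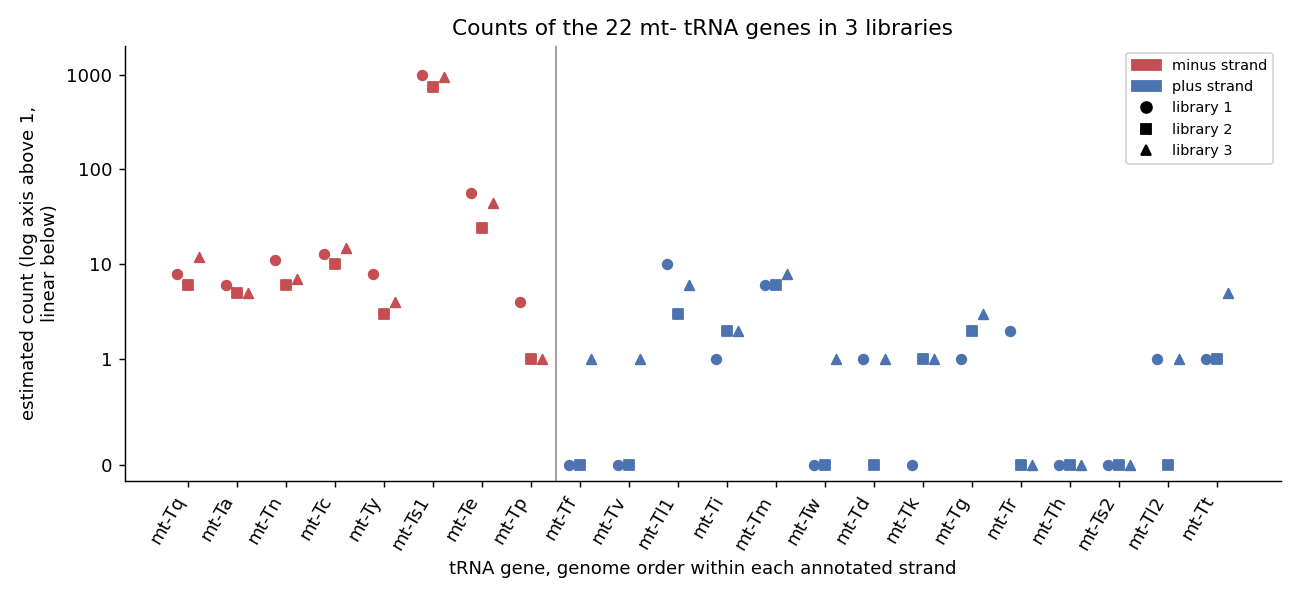
Estimated counts of the 22 mt- tRNA genes in libraries 1, 2 and 3, minus-strand genes on the left and plus-strand genes on the right, on an axis that is logarithmic above 1 count and linear below. mt-Ts1 stands between 746 and 995 counts and mt-Te between 24 and 56, while every plus-strand gene has at most 10 counts.

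Differences between libraries were tested for every gene by a chi-square test against equal shares in all libraries, with TMM scaling and Benjamini-Hochberg adjustment over all 13949 genes with at least 30 counts. Of the members 18 had enough counts to be tested, namely all 13 protein genes, both rRNA genes and 3 tRNA genes (mt-Ts1, mt-Te and mt-Tc), and the other 19 were tRNA genes with too few. Of those tested 17 passed at 0.05, where 57.2% of all tested genes did, so most genes tested differed between these libraries beyond counting error. With the chi-square divided by its median inflation of 6.45, which sets the typical gene to counting noise, 11 of the 18 passed. These were 9 protein genes and both rRNA genes, where 4.45% of all tested genes passed. The divisor is the same for every gene, while a chi-square grows with the count. Genes with many counts, as most tested members have, therefore pass more readily. The share passing among genes with like counts was not taken. Without library 2, 8 members passed the first test. The share of all tested genes that passed without library 2 was not taken, so the drop cannot be called particular to the members. With reads of the 7 pairs summed, the counts were again 17, where 57.1% of all tested genes passed, and 11, where 4.42% did.

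Library 2 was the lowest of the 3, on TMM-scaled counts, for 11 of 13 protein genes by own counts and for 13 of 13 when pairs were summed, against 32.2% of all tested genes. The count of 13 was the same with DESeq2 size factors, with total gene counts and with TMM factors from the nuclear genes alone. The 2 exceptions by own counts were mt-Co2, lowest in library 1, and mt-Nd3, lowest in library 1 and highest in library 2. Both are members whose reads were divided differently between gene and copy in each library. Library 3 was lowest for 0 of the 13, although it was lowest for 53.8% of the tested genes whose mean count was at least 1000.

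The shifts were small in size. The median log2 ratio of the highest to the lowest library was 0.32 over the 13 protein genes, and 0.24 summed, beside 0.35 over all tested genes and 0.20 over tested genes whose mean count was at least 1000. Without library 2 the median of the protein genes was 0.06. The widest log2 range among summed protein genes with a corrected adjusted p under 0.05 was that of mt-Nd2, at 0.55 (corrected chi-square, adjusted p = 1.4e-06). mt-Nd4l ranged wider, at 0.72, but rests on 281 to 512 counts and did not pass the corrected test (adjusted p = 0.21). Cytochrome b, with no near-identical copy on chromosome 1, varied by 0.15 (adjusted p = 0.0025), and mt-Nd1, also without one, by 0.19 (adjusted p = 0.0021).

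The 2 rRNA genes moved in opposite directions. By the corrected test mt-Rnr1 ranged by 0.51 on the log2 scale and was highest in library 2 (adjusted p = 4.0e-21), and mt-Rnr2 ranged by 0.57 and was lowest in library 2 (adjusted p = 4.6e-96). In library 2 the TMM-scaled count of mt-Rnr1 was 1.38 times the mean of the other libraries, and that of mt-Rnr2 was 0.681 times it. Neither rRNA gene matched an annotated nuclear gene. Library 2 also stood apart in rows that name no annotated gene, which took 0.579% of its counts, against 0.188% in library 1 and 0.24% in library 3. The part of that difference in these results was not tested.

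**Figure D4:**
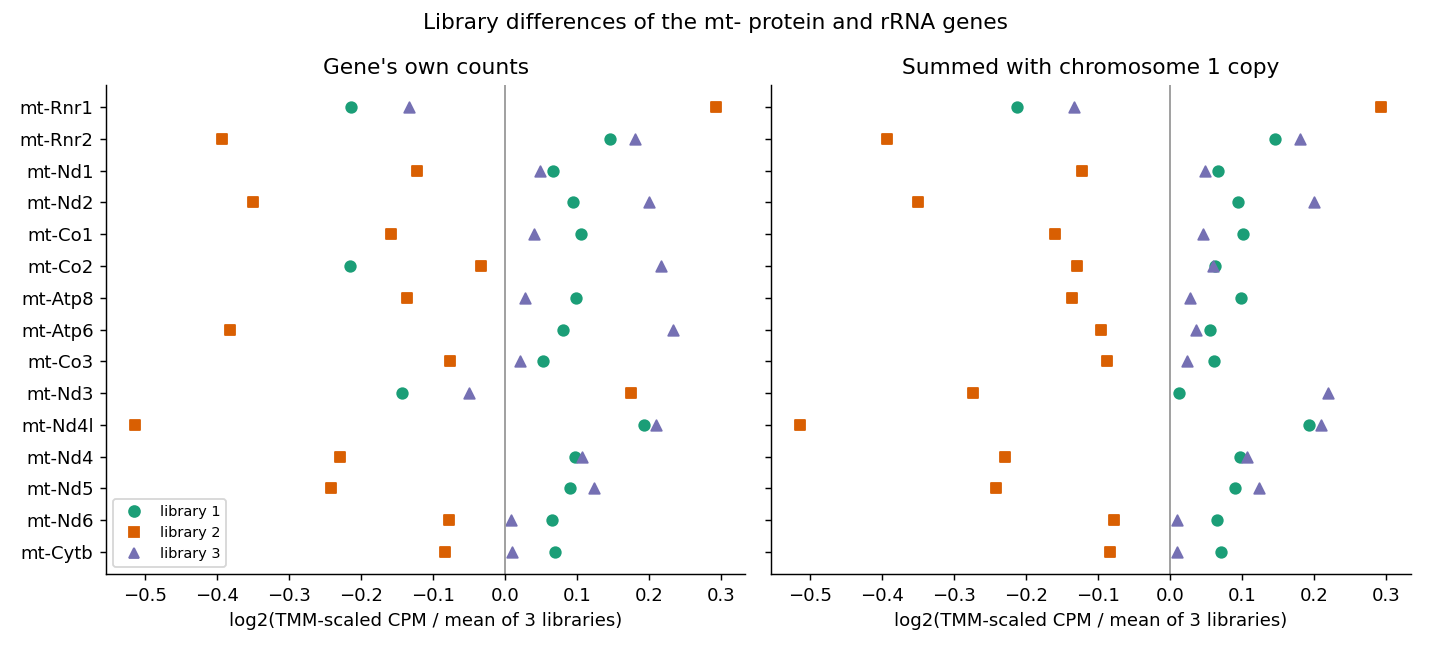
log2 of the TMM-scaled count of each protein and rRNA gene over its mean of 3 libraries, by own counts on the left and summed with the chromosome 1 copy on the right. Library 2 (squares) lies left of the other libraries for 13 of 13 protein genes when summed, and right of them for mt-Rnr1.

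Mitochondrial subunits were more abundant than the nuclear subunits of the same complexes. In complex I the median of the 7 mitochondrial subunits was 4.10, 3.35 and 4.38 times the median of 36 nuclear subunits in libraries 1, 2 and 3, or 3.95 ± 0.535. The ratio was 11.9 ± 1.14 for complex III (1 mitochondrial and 9 nuclear subunits), 13.7 ± 0.821 for complex IV (3 and 11) and 14.6 ± 2.34 for complex V (2 and 16). Summed with the copies, the ratio was 18.2 ± 1.1 for complex IV and 20.4 ± 1.2 for complex V, and that of complex I stayed at 3.95. By mean TPM, 5 of 7 mitochondrial subunits of complex I stood above its highest nuclear subunit, or 6 of 7 with pairs summed, and all 6 mitochondrial subunits of complexes III, IV and V stood above theirs. The 2 complex I members below it were mt-Nd4l and, by own counts only, mt-Nd3.

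The nuclear subunits of complex I ran from 28.4 to 275.5 TPM with a median of 97.2, with the iron-sulphur subunit Ndufs1 at 62.5 ± 4.98 TPM, the flavoprotein Ndufv1 at 91.3 ± 6.9 TPM, and Ndufa3, Ndufa6 and Ndufa7 highest at 275.5, 211 and 173.5 TPM. In complex III the median was 182.5 TPM, with the Rieske protein gene Uqcrfs1 at 121 ± 3.77 TPM, cytochrome c1 (Cyc1) at 158 ± 10.7 TPM, and Uqcrh, Uqcr10 and Uqcrc1 highest at 318, 218 and 213.5 TPM. In complex IV the median was 290.2 TPM, with Cox4i1 at 506 TPM, Cox5a at 207 ± 17.1 TPM, and Cox8a, Cox6a1 and Cox6b1 at 395, 372.5 and 359 TPM. In complex V the median was 242 TPM, with the catalytic beta subunit Atp5b at 908 ± 40.6 TPM, the alpha subunit Atp5a1 at 410 TPM, and Atp5h, Atp5g3 and Atp5d at 476, 327 and 298 TPM.

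In the library test 34 of the 72 nuclear subunits passed at 0.05, a share below the 57.2% of all tested genes, and the library that was lowest varied. Among nuclear complex I subunits 15 of 36 passed, and library 2 was the lowest for 3 of these and the highest for 9. In complex III 4 of 9 passed, with library 2 lowest for 2 and highest for 2. In complex IV 6 of 11 passed, with library 2 lowest for 5. In complex V 9 of 16 passed, with library 2 lowest for 4 and highest for 4. The share of all tested genes with library 2 highest was not taken. With the corrected chi-square, passed by 4.45% of all tested genes, 9 of 13 mitochondrial subunits passed, against 1 of 72 nuclear ones, Atp5a1. These calls do not compare sizes, since a chi-square grows with the count and most mitochondrial genes have more counts. The median log2 range was 0.32 over the mitochondrial subunits, and 0.24 summed, against 0.19, 0.20, 0.16 and 0.17 over the nuclear subunits of complexes I, III, IV and V. The lists were drawn up with earlier results known, and no test of the difference between lists was made.

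**Figure D5:**
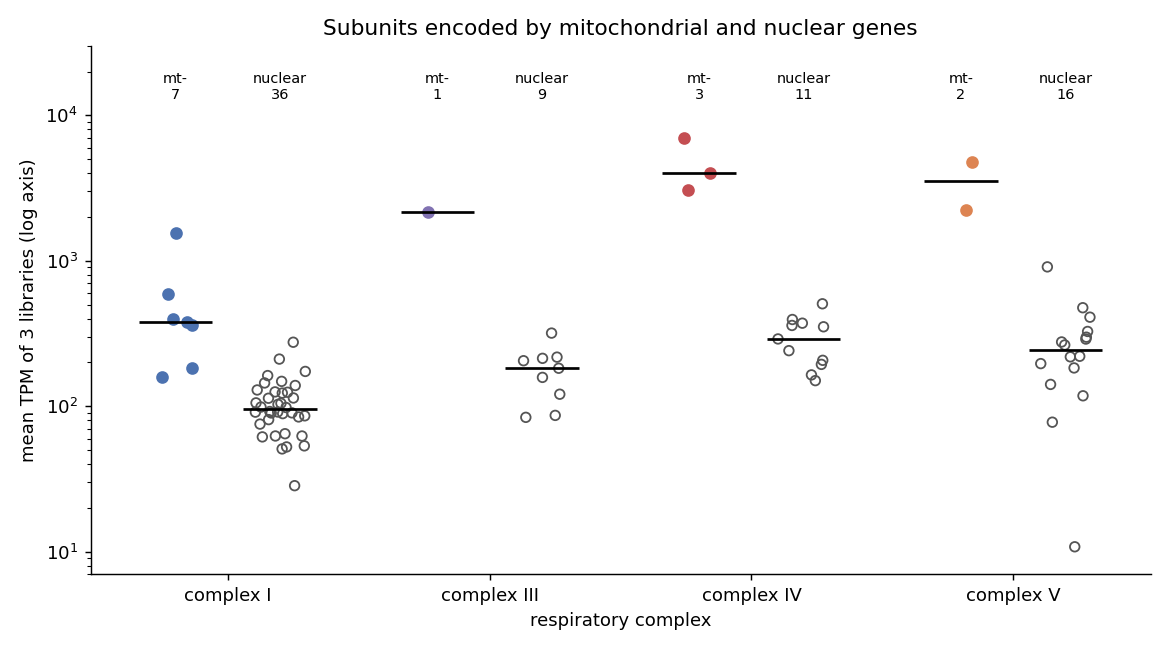
Mean TPM of 3 libraries, on a log axis, of each mitochondrial subunit (filled, left) and each nuclear subunit (open, right) of complexes I, III, IV and V, with lines for the median of the plotted values and the number of genes above. Every mitochondrial subunit of complexes III, IV and V lies above all nuclear subunits of its complex, and by own counts mt-Nd3 and mt-Nd4l lie within the nuclear range of complex I.

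The nuclear genes that copy, transcribe and process the mitochondrial genome had list medians of 6.08 to 34.2 TPM, beside 1551 TPM for the 13 mitochondrial protein genes. The 8 genes of mitochondrial DNA replication and packaging had a median of 34.2 ± 1.17 TPM. Among them the packaging factor Tfam had 80.7, 73.0 and 86.8 TPM, the polymerase subunit genes Polg and Polg2 averaged 79.3 and 179 TPM, the single-strand binding protein Ssbp1 55.9 TPM and Primpol 12.6 TPM. The 9 transcription genes had a median of 6.08 ± 0.14 TPM. The RNA polymerase gene Polrmt had 26.1, 28.9 and 25.2 TPM, and its initiation partner Tfb2m had 40.2, 38.3 and 44.9 TPM. Mterf3 was the highest of this list at 68.4 TPM, and Mterf1a and Mterf4 averaged 6.72 and 6.32 TPM.

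The enzymes that cut tRNAs out of the precursor were measured by 4 genes with a median of 23.3 ± 2.25 TPM. Elac2, which cuts at the 3′ end of tRNAs, averaged 22.6 TPM. The 5′-end enzyme has 3 subunits, of which the nuclease Prorp averaged 5.63 TPM, Trmt10c 24.02 TPM and Hsd17b10 39.1 TPM. The 13 genes of mitochondrial mRNA stability and polyadenylation had a median of 24.03 ± 1.83 TPM. The poly(A) polymerase gene Mtpap averaged 46.3 TPM, and Lrpprc and Slirp, whose proteins bind mitochondrial mRNAs as a complex, averaged 23.7 and 36.4 TPM. Rexo2, a ribonuclease of short RNA fragments, was the highest at 148 TPM, followed by Fastk at 74.7 TPM and Fastkd2 at 31.4 TPM. Over these 4 lists all 34 genes were above 1 TPM on average.

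In the library test 18 of these 34 genes passed at 0.05, where 57.2% of all tested genes did, and 0 passed with the corrected chi-square, where 4.45% did. In the stability and polyadenylation list 9 of 13 passed, with library 2 highest for 6 and lowest for 0. In the tRNA-end list 3 of 4 passed, each with library 2 highest. The share of all tested genes with library 2 highest was not taken, so these directions cannot be called particular to the lists.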

How the data were processed

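RNA-seq tables of 3 technical libraries of 1 mouse were used. The authors deposited expected counts (estimated counts dividing ambiguous reads), TPM, FPKM and posterior mean values per gene on mm10 with GENCODE M21, per the file headers and deposited notes. A second deposited table gives counts, as whole numbers, of 22457 GENCODE M4 genes. Neither software nor strand setting is given in the sources used here. Rows naming no annotated gene held 0.188% to 0.579% of counts and were left out.

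Expected counts were rounded and tested across libraries by chi-square (edgeR 4.0.16 TMM sizes, at least 30 counts, Benjamini-Hochberg at 0.05), also with the chi-square divided by its median inflation. The uncorrected test was also run on simulated counts with counting error only. These libraries vary by more than that, so the simulation does not give the error rate of either test here. Copies were found with blastn 2.17.0 (90% identity over 100 bases) among GENCODE M21 transcripts rather than the genome, and sequences come from those transcripts. Other settings included DESeq2 1.42.0 size factors. The rule for named genes took all 13 protein and 2 rRNA genes, tRNA genes averaging 100 counts, the key genes and 3 highest others of each nuclear list, and copies with 10 counts. Other tRNA genes were named after their values were seen. Members and lists were chosen with earlier results of these data known.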

Additional observations from a re-analysis of the deposited data

How the results depend on the processing

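No paired analysis was possible because all libraries belong to 1 group. The number of members past the library test, 17, stayed between 16 and 17 with other scalings and count filters and with pairs summed. It was 11 with the corrected chi-square and 3 in the second table, and 8 to 17 with 1 library left out, lowest without library 2. The share of all tested genes passing with 1 library left out was not taken. The median log2 range of 0.32 was 0.0604 to 0.264 with 1 library left out, again lowest without library 2. It was 0.14 in the second table, which tests 7 protein genes. These 7 genes level off there and the other 6 protein genes have 0 counts. The number of members passing, the range and the shares from the second table therefore cannot test the main values. The members' share of 1.67% of counts was 0.221% in the second table, 3.62% of TPM and 1.94% with copies. The median level of 1551 TPM was 1327 with posterior mean TPM and 897.5 as counts per kilobase scaled to total counts. Means of 7029 TPM for mt-Co3, 4811 for mt-Atp6 and 3073 for mt-Co2 were 4029, 3668 and 2056 with posterior mean TPM. Posterior mean TPM was also lower for mt-Cytb, at 1856 against 2169, although its count had a posterior SD of 0. The 2 measures thus differ in scale, and not all of a drop is read assignment. The plus-strand share of 98.96% was 93.1% in the second table, 98.7% without rRNA genes and 99.11% with copies. With means in place of medians the ratio to nuclear subunits was 4.9 for complex I and 15.99 for complex IV, and with copies 18.2 for complex IV and 20.4 for complex V. Of 184 tests of single genes under other settings, 163 stayed on the same side of 0.05. Of the 21 that did not, 9 came from leaving out library 2, 6 from the corrected chi-square and 4 from the second table. Apart from the settings' own construction, the cause was not tested. Counts of 24 to 56 limit what could be seen in mt-Te, and lower counts left 19 tRNA genes untested.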
